A study of Aspergillus nidulans with 38 samples.

Results

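The transcripts of 10 genes for tubulins and proteins that work on microtubules were followed in *Aspergillus nidulans* exposed to micafungin. The genes were taken by locus number from a list of tubulin and microtubule genes, drawn up with earlier results of these data known, and they are 10 of the 9541 genes in the count tables. They are the beta-tubulin genes *benA* (AN1182) and *tubC* (AN6838), the alpha-tubulin genes *tubA* (AN0316) and *tubB* (AN7570), the gamma-tubulin gene *mipA* (AN0676), the plus-end protein genes *alpA* (AN5521) and *clipA* (AN1475), the cell end marker genes *teaA* (AN4564) and *teaR* (AN4214), and *nudA* (AN0118) for the heavy chain of cytoplasmic dynein. Each of the 10 passed the filter on low counts and was tested.

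All cultures were of the parental strain FGSC A1405, grown in shaken YGV medium at 28 °C for about 20 h before micafungin was added (20 ng/ml per g/kg of biomass). Mycelium was taken from the same 3 flasks, which are the 3 replicates, before the drug (0 min), every 5 min up to 30 min, every 10 min up to 60 min, and at 75, 90 and 120 min. There were 3 libraries at each time point and 2 at 15 min, 38 in all, with 5814843 to 10846567 reads counted on genes per library. Every library later than 0 min had micafungin and no untreated flask of the same age was sequenced, so time in the drug and the age of the culture cannot be told apart.

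Microtubules are hollow polymers of alpha- and beta-tubulin dimers that grow at their plus ends and are nucleated by gamma-tubulin. In hyphae of *A. nidulans* they carry secretory vesicles, endosomes and nuclei over long distances and build the mitotic spindle, and their plus ends help to place the cell end markers that keep growth at the tip straight. Micafungin belongs to the echinocandins, which inhibit synthesis of beta-1,3-glucan, the main glucan of the fungal wall that is laid down at the growing tip.

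Over the course, 4 of the 10 genes (*benA*, *clipA*, *tubB* and *alpA*) were called as changed by edgeR, against 23.3% of all genes tested. Each of the 4 went down, and *benA* alone kept its call whichever flask was left out. With the flask as the unit no member passed, where of all 8290 genes tested 0 passed as lower and 3 as higher. *benA* fell most of the 4, by 0.69 on the log2 scale at 120 min (standard error 0.12). *clipA* was 0.41 lower and *alpA* 0.37 lower, and *tubB*, at 0.29 lower, did not pass at that time. *teaR* was called lower at 75 and 120 min. No member was higher than at 0 min by the test at any time. *tubC* and *tubA* took different courses in the 3 flasks, and neither passed the test. The share of *tubC* in beta-tubulin reads was larger late than early in all 3 flasks, in each of which *benA* fell.

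The test for change over the course was edgeR's quasi-likelihood F test of all time points together, on the 36 libraries of the 12 time points with 3 replicates, with the flask as a block and p-values adjusted over 8290 genes. It called 4 of the 10 members at an adjusted p below 0.05, against 23.3% of all genes tested. The adjusted p was 1.29e-05 for *benA*, 0.00156 for *clipA*, 0.0158 for *tubB* and 0.0319 for *alpA*. These 4 genes are also in the study's table of cytoskeleton genes with changing expression, which was drawn up on these libraries, so their calls are not independent evidence. With 2 of the 3 flasks in the fit, *benA* kept an adjusted p of 0.00448 to 0.0226. *clipA* then had 0.0748 to 0.132, *tubB* 0.0586 to 0.416 and *alpA* 0.233 to 0.524. Each of these 3 thus lost its call whichever flask was left out, and *teaR* was called without flask 2 (adjusted p = 0.0446). Calls fell over all genes too, from 1931 in the main fit to 439, 1327 and 1213 without flasks 1, 2 and 3. Without the replicate block, 2 of the 10 were called, *benA* and *tubB*, and 806 of all genes. With time as a spline 8 of the 10 were called, along with 4845 of all 8290 genes, and *mipA* (adjusted p = 0.0303), *teaA* (0.00486), *teaR* (0.00118) and *nudA* (0.00957) were then among them. Libraries of a flask were taken in series and are not independent. The correlation of a library's residual with that of the next library of its flask was 0.37 in the median gene tested, and among the members it went from 0.078 for *nudA* to 0.88 for *tubA*, so these p-values may be too small.

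Taking each flask as 1 value, no member passed. The mean log2 CPM (reads of a gene scaled to a common library size) at 60, 75, 90 and 120 min minus the mean at 0, 5 and 10 min was below 0 in the average of 9 of the 10 members, with a median of -0.25 against 0.00 for all genes tested. limma called 0 of the 10 members lower, against 0% of all genes lower and 0.0362% higher, which were 3 genes. At an unadjusted p below 0.05 it listed 2 members, *benA* and *clipA*, and 1786 genes in all.

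**Figure D1:**
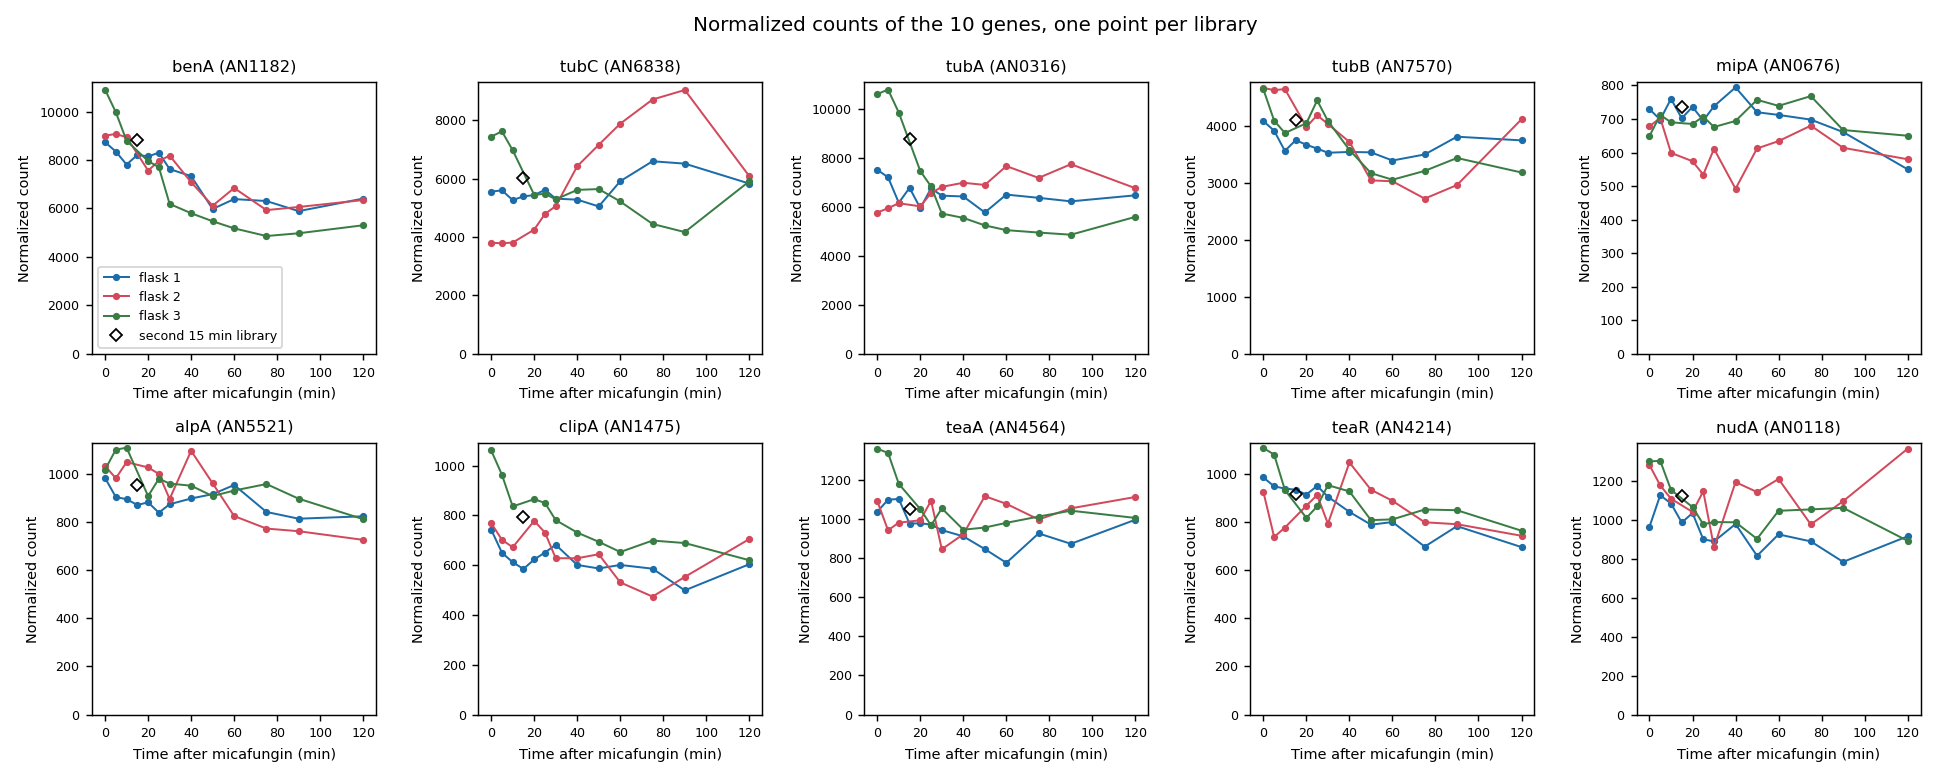
Normalized count (counts over DESeq2 size factors, y axis from 0) against time after micafungin in minutes for each of the 10 genes, with 1 line per flask and the second 15 min library as an open diamond. *benA* goes down in all 3 flasks, from between 8738 and 10903 at 0 min to between 5307 and 6409 at 120 min, while *tubC* rises in flask 2 and falls in flask 3 up to 90 min.

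*benA* encodes the main beta-tubulin of growing hyphae and the target of benomyl. In flask 1 its normalized count was 8738 at 0 min, 8349, 7811, 8211, 8150, 8301, 7626 and 7334 at the times up to 40 min, and 5979, 6388, 6307, 5891 and 6409 from 50 to 120 min. In flask 2 it was 9007 at 0 min, 9073, 8942, 7566, 7954, 8184 and 7083 up to 40 min, with 15 min left aside, and 6113, 6844, 5933, 6062 and 6348 thereafter. Flask 3 started highest, at 10903, passed through 9971, 8796, 7956, 7702, 6188 and 5804 up to 40 min, and ended with 5473, 5180, 4863, 4977 and 5307. At each time from 20 min on, every library was below all 3 libraries of 0 min. The means ranked 0, 5 and 10 min highest, at 9550 ± 1180, 9131 ± 813 and 8517 ± 615 (SD, n = 3), with ranges that overlapped. Within flasks 1, 2 and 3 the log2 change from 0 to 10 min was -0.16, -0.01 and -0.31. The means ranked 75 and 90 min lowest, at 5701 ± 750 and 5643 ± 583 (SD, n = 3), again with ranges that overlapped.

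Against 0 min, *benA* first passed the edgeR test at 40 min, at 0.49 lower on the log2 scale (standard error 0.12, adjusted p = 0.0199), and stayed lower at every later time. At 60 min it was at -0.63 (edgeR adjusted p = 0.00119) and at 120 min at -0.69 (edgeR adjusted p = 0.000106). By flask, the log2 change at 120 min was -0.45, -0.50 and -1.04, and flask 3 moved farther than either of the others. The calls at 75, 90 and 120 min held with any flask left out. The call at 40 min was lost whichever flask was left out, with an edgeR adjusted p of 0.203 without flask 1, 0.101 without flask 2 and 0.25 without flask 3, where the estimate was -0.29, and it was lost with no replicate block (0.15). Without flask 1 the calls at 50 min (edgeR adjusted p = 0.067) and 60 min (0.0626) were lost too. Over the late window the 3 flasks were lower by 0.43, 0.53 and 0.93, and limma's adjusted p over all genes was 0.156.

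*tubC* encodes the second beta-tubulin, known in *A. nidulans* for its use during conidiation. Flask 1 held 5553, 5615, 5045, 6591, 6509 and 5827 normalized counts at 0, 25, 50, 75, 90 and 120 min. Flask 2 held 3801, 3786 and 3808 at 0, 5 and 10 min and rose to 5055, 7877 and 9029 by 30, 60 and 90 min. It then came down to 6079 at 120 min, still above its start. Flask 3 went the other way, from 7434 through 5287, 5215 and 4167 at 30, 60 and 90 min, and ended at 5906. The flasks were thus spread over 3801 to 7434 at 0 min and lay between 5827 and 6079 at 120 min. The log2 change at 60 min was 0.09, 1.05 and -0.51 in flasks 1, 2 and 3, and the edgeR estimates of 0.21 at 60 min (standard error 0.28, adjusted p = 0.756) and 0.08 at 120 min (standard error 0.28, adjusted p = 0.855) did not pass. Without flask 2 the estimate at 120 min was -0.16.

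*tubA*, the alpha-tubulin gene needed for mitosis and hyphal growth, showed the same kind of split. In flask 3 it had 10628, 10812, 7478, 5741, 5062, 4875 and 5606 normalized counts at 0, 5, 20, 30, 60, 90 and 120 min. In flask 2 it went from 5780 to 6832, 7683, 7759 and 6777 at 30, 60, 90 and 120 min, and in flask 1 from 7531 to 6473, 6517, 6240 and 6487 at those times. It ended lower than it began in flasks 1 and 3 and higher in flask 2. The mean was 7980 ± 2455 (SD, n = 3) at 0 min and 6290 ± 610 at 120 min, and the log2 fold change of -0.36 at 120 min (standard error 0.23) had an edgeR adjusted p of 0.252.

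*tubB* encodes the other alpha-tubulin, which in *A. nidulans* is needed to form ascospores. It had 4080, 4662 and 4637 normalized counts in flasks 1, 2 and 3 at 0 min, 3525, 4028 and 4082 at 30 min, 3389, 3025 and 3052 at 60 min, 3495, 2721 and 3207 at 75 min, and 3742, 4112 and 3179 at 120 min. All 3 flasks were lower at 60 min than any was at 0 min, and at 120 min flask 2 was back within the range of 0 min. The edgeR log2 fold change was -0.48 at 60 min (standard error 0.12, adjusted p = 0.012) and -0.50 at 75 min (adjusted p = 0.00514), and at 120 min it was -0.29 (adjusted p = 0.0661), which no longer passed. The call at 60 min was lost whichever flask was left out, with an edgeR adjusted p of 0.0626 without flask 1, 0.0823 without flask 2 and 0.153 without flask 3. That at 75 min was lost without flask 2 (0.0837) and without flask 3 (0.0755). *tubB* was also called lower at 50 min (-0.43, edgeR adjusted p = 0.031) and at 90 min (-0.38, 0.0269). Both calls were lost whichever flask was left out, with an edgeR adjusted p of 0.11 to 0.239 at 50 min and 0.0543 to 0.21 at 90 min. The counts of *tubA* and *tubB*, and those of *benA* and *tubC*, come from similar coding sequences, and the treatment of reads that fit both genes of a pair was not given in the sources used here.

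Shares of reads within a library do not depend on normalization. *tubC* made up 38.9%, 29.7% and 40.5% of the reads of *benA* and *tubC* together in flasks 1, 2 and 3 at 0 min. It made up 41.1%, 38.2% and 46.1% at 30 min, 48%, 53.5% and 50.2% at 60 min, 52.5%, 59.8% and 45.6% at 90 min, and 47.6%, 48.9% and 52.7% at 120 min. All 3 libraries of 120 min were above all 3 of 0 min. From the early window (0, 5 and 10 min) to the late one (60 to 120 min) the mean share went from 37.4% to 51.4%, a difference of 14.1 ± 10.3 percentage points (SD, n = 3 flasks), with 10.1, 25.8 and 6.37 points in flasks 1, 2 and 3. An exact two-sided sign-flip permutation test over the 3 flasks gave p = 0.25, which is the smallest it can give. With 120 min set against 0 min alone, the rise was 13.4 points. From the early to the late window the mean log2 CPM of *benA* moved by -0.43, -0.53 and -0.93 in flasks 1, 2 and 3. That of *tubC* moved by 0.16, 1.04 and -0.56.

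The share of *tubB* in alpha-tubulin reads moved in opposite directions in the flasks. Between the windows it went from 43.8% to 30.3% in flask 2, from 28.7% to 38.6% in flask 3, and from 35.6% to 36% in flask 1. The 3 flasks then lay together at 120 min, at 36.6%, 37.8% and 36.2%. The mean difference was -1.05 ± 11.8 percentage points (SD, n = 3 flasks, exact sign-flip permutation p = 1). With 120 min set against 0 min alone it was 0.124 points, and without flask 2 it was 5.18 points.

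The ratio of beta- to alpha-tubulin reads varied less than either share. It was 1.23, 1.23 and 1.2 in flasks 1, 2 and 3 at 0 min and 1.2, 1.14 and 1.28 at 120 min. Over all 38 libraries it stayed between 1.1 and 1.48, with the highest value in flask 2 at 75 min. The late minus early difference was 0.045 ± 0.0887 (SD, n = 3 flasks, exact sign-flip permutation p = 0.75), and it was -0.015 for 120 min against 0 min alone and -0.00379 without flask 2. The ratio compares reads and is not set against transcript length.

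**Figure D2:**
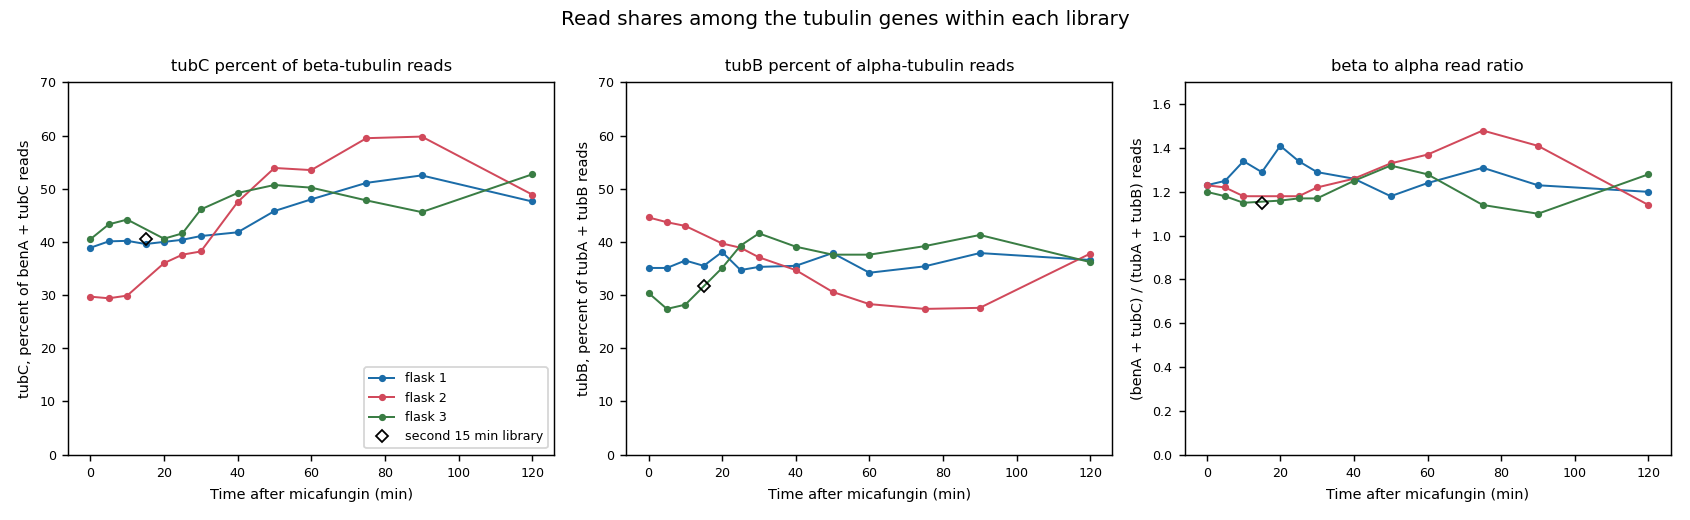
Read shares within each library against time after micafungin in minutes, with the y axes from 0: *tubC* as a percent of *benA* and *tubC* reads, *tubB* as a percent of *tubA* and *tubB* reads, and the ratio of beta- to alpha-tubulin reads. Lines are flasks and the open diamond is the second 15 min library. The *tubC* share ends between 47.6% and 52.7%, above its start in every flask, while the *tubB* share falls to 27.4% in flask 2 and reaches 41.6% in flask 3 before the flasks meet.

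*mipA* encodes gamma-tubulin, which was first found in *A. nidulans*. It had 729, 678 and 649 normalized counts at 0 min, 712, 634 and 739 at 60 min, and 550, 580 and 650 at 120 min. The values of 0 and 60 min overlapped, and at 120 min 2 of the 3 flasks were lower. The edgeR log2 fold change was 0.04 at 60 min (standard error 0.11) and -0.22 at 120 min (standard error 0.11, adjusted p = 0.133), and the adjusted p over the course was 0.694.

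Both plus-end genes fell. *clipA* encodes a relative of CLIP-170, which binds growing plus ends. It had 743, 769 and 1061 normalized counts in flasks 1, 2 and 3 at 0 min, 682, 628 and 781 at 30 min, 601, 531 and 653 at 60 min, 499, 553 and 689 at 90 min, and 604, 705 and 620 at 120 min. The libraries of 60, 90 and 120 min were all below those of 0 min, and flask 3 started higher than the other two. It was lower by the edgeR test from 50 min on, with a log2 fold change of -0.37 at 50 min (adjusted p = 0.0267), -0.54 at 90 min (adjusted p = 0.000441) and -0.41 at 120 min (adjusted p = 0.00398). The calls at 75 and 90 min held with any flask left out. The call at 50 min was lost without flask 1 (edgeR adjusted p = 0.231) and without flask 3 (0.273), that at 60 min without flask 1 (0.0551) and without flask 3 (0.0946), and that at 120 min without flask 3 (0.224, estimate -0.25). With no replicate block, the call at 90 min alone held (edgeR adjusted p = 0.0434). *clipA* overlaps AN11252 in the RefSeq annotation of assembly ASM1142v1, and with the strand setting not given in the sources used here, counts of the pair may be mixed.

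*alpA* encodes a protein of the XMAP215 family, which stabilizes plus ends and speeds their growth. It had 983, 1033 and 1018 normalized counts at 0 min and 874, 896 and 960 at 30 min. At 60 min it had 954, 825 and 931, and at 120 min 824, 726 and 812. The libraries of 0 min lay close together, and every library of 120 min was below them. Of the times tested, *alpA* passed the edgeR test at the last 2, with a log2 fold change of -0.28 at 90 min (adjusted p = 0.0341) and -0.37 at 120 min (adjusted p = 0.00398). The call at 90 min was lost whichever flask was left out, with an adjusted p of 0.225, 0.159 and 0.0861 without flasks 1, 2 and 3, and with no replicate block (0.0881). That at 120 min was lost without flask 2 (0.054). Its call over the course was also lost with DESeq2's size factors in edgeR (adjusted p = 0.0597) and with a normalized count of at least 10 required (adjusted p = 0.0892).

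*teaA* and *teaR* encode cell end markers, of which TeaA rides on microtubule plus ends to the hyphal tip and TeaR anchors it at the membrane. *teaR* had 984, 924 and 1106 normalized counts at 0 min, 799, 887 and 810 at 60 min, and 695, 742 and 763 at 120 min. Its libraries at 120 min were all below those at 0 min, with log2 changes of -0.50, -0.32 and -0.54 in flasks 1, 2 and 3. The edgeR log2 fold change was -0.35 at 75 min (adjusted p = 0.0366), a call lost without flask 1 (0.405) and without flask 3 (0.145). At 120 min it was -0.46 (standard error 0.11, adjusted p = 0.00342). That call was lost without flask 1 (adjusted p = 0.0895) and without flask 3 (adjusted p = 0.0588), and the adjusted p over the course was 0.106. *teaA* had 1036, 1090 and 1357 normalized counts at 0 min and 995, 1111 and 1004 at 120 min, which overlapped. Its edgeR log2 fold change at 120 min was -0.17 (standard error 0.12, adjusted p = 0.281). At 40 and 75 min all its libraries were below those of 0 min, and at 60 and 90 min they overlapped. The estimate at 40 min, -0.30, did not pass (edgeR adjusted p = 0.185).

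*nudA* encodes the heavy chain of dynein, the motor that runs toward minus ends and moves nuclei and endosomes. It had 963, 1279 and 1298 normalized counts at 0 min, 888, 858 and 987 at 30 min, and 914, 1363 and 891 at 120 min. At 120 min flask 2 held the highest value of its course and flask 3 the lowest of its own, so the groups overlapped. The edgeR log2 fold change at 120 min was -0.18 (standard error 0.12, adjusted p = 0.258).

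Time by time, the members called lower than at 0 min by edgeR were 1 of 10 at 40 min, against 1.27% of all genes tested, 3 at 50 min against 2.8%, and 3 at 60 min against 3.82%. There were 4 at 75 min against 6.83%, 4 at 90 min against 8.61% and 4 at 120 min against 12.5%. None was called higher at 120 min, where 16.5% of all genes were. At an unadjusted p below 0.05, 5 of the 10 members and 3306 of all 8290 genes passed at 120 min. Over the 10 members the median log2 change was -0.22, -0.26 and -0.32 at 30, 60 and 120 min, while over all genes tested it was 0.01, 0.01 and -0.03. With fits of the 6 libraries of 0 min and 1 later time alone, no member was called at any time. Of all 8290 genes, these fits called 0 at 5 min and from 20 to 90 min, 2 at 10 min and 366 at 120 min. At 120 min the 4 genes called above had an edgeR adjusted p of 0.121 to 0.217 in these fits. There, 3 members and 2193 of the 8290 genes had an unadjusted p below 0.05. The DESeq2 Wald test called 4 members lower at 120 min, where it called 2537 of all genes lower or higher. Every member kept its direction at 120 min with DESeq2's size factors.

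Counted by flask, 7 of the 10 members were lower than at 0 min in all 3 flasks at 60 min, as 19.8% of all genes tested were. At 120 min it was 5 of the 10, against 26.2%. These 5 were *benA*, *tubB*, *alpA*, *clipA* and *teaR*. No member was higher in all 3 flasks at any time. In bulk RNA, fewer cells with a transcript and less of it per cell cannot be told apart.

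**Figure D3:**
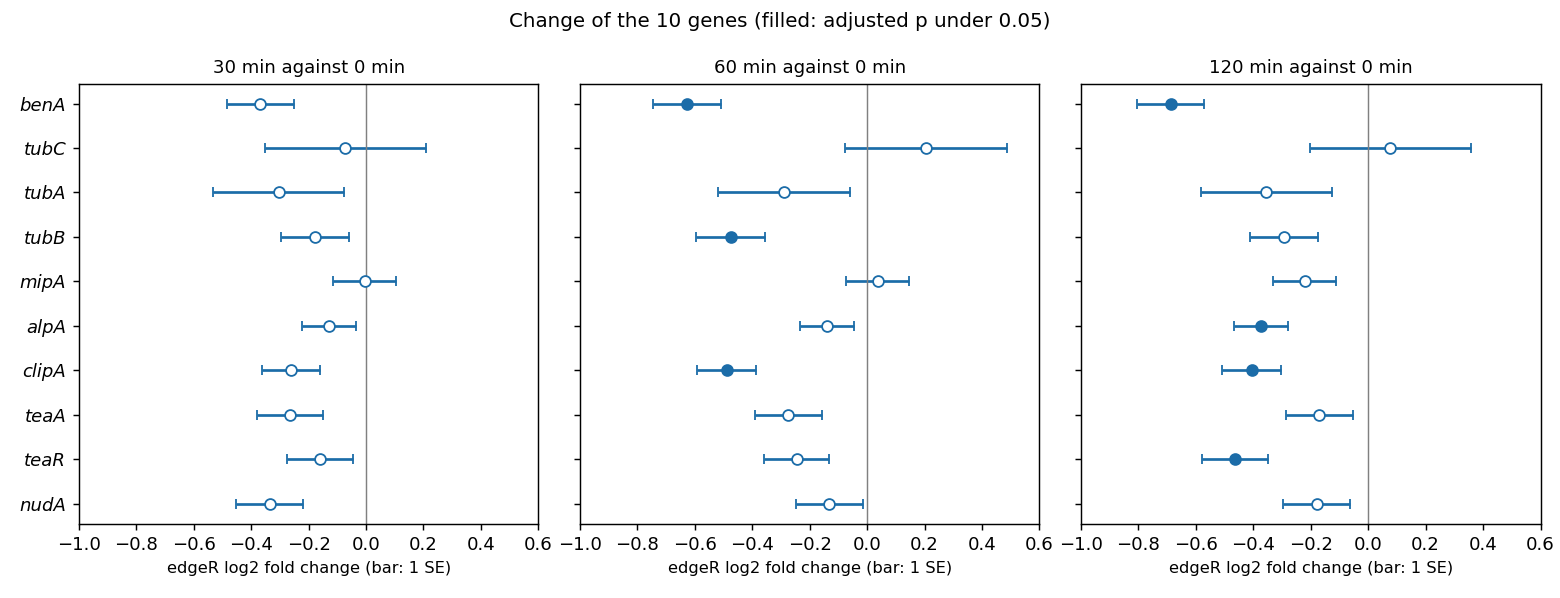
edgeR log2 fold change against 0 min (x axis) for each of the 10 genes at 30, 60 and 120 min, with a bar of 1 standard error and filled points where the adjusted p was below 0.05. No point is filled at 30 min, 3 are filled at 60 min and 4 at 120 min, all to the left of 0.

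**Figure D4:**
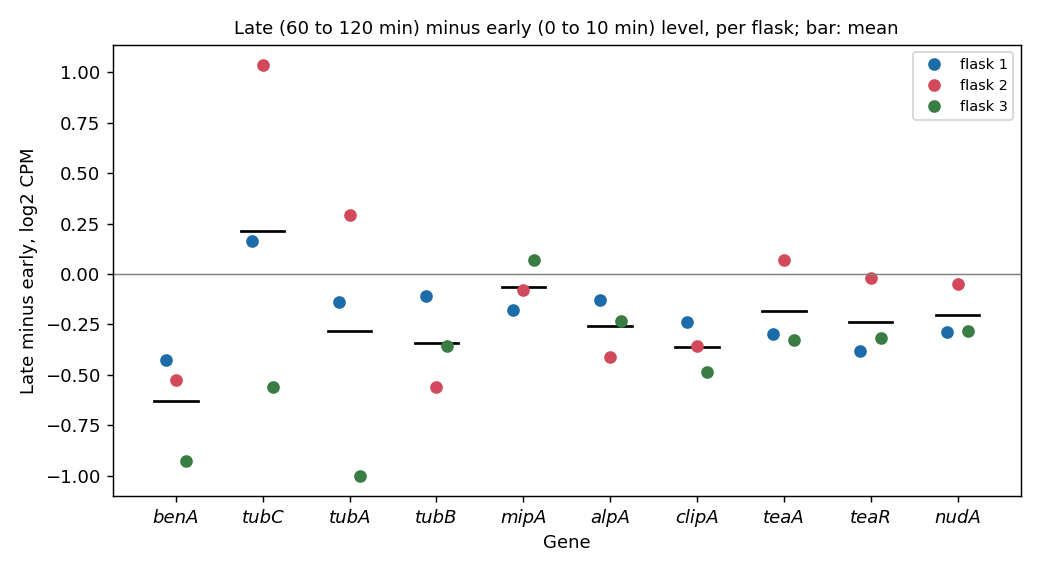
Late (60, 75, 90 and 120 min) minus early (0, 5 and 10 min) mean log2 CPM for each gene, with 1 point per flask and a bar at the mean of 3 flasks. *benA*, *tubB*, *alpA*, *clipA*, *teaR* and *nudA* are below 0 in every flask, while *tubC* goes from -0.56 in flask 3 to 1.04 in flask 2, and *tubA* is above 0 in flask 2 alone.

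The members did not move as a block. Over the 36 libraries, with levels centred within each flask, *benA* was most like *clipA* among the members (Pearson r = 0.814), then *tubB* (0.742), *tubA* (0.67) and *alpA* (0.577). *tubC* and *benA* had an r of -0.0763, with -0.445, -0.926 and 0.835 within flasks 1, 2 and 3. *tubA* and *tubB* had 0.239, with 0.627, -0.845 and 0.75 in those flasks. *tubC* and *tubA* went together at 0.94 in flask 2 and 0.878 in flask 3, and at 0.129 in flask 1. *teaA* and *nudA* had an r of 0.765. Libraries of a flask share its culture and were taken in series, so these values are descriptions.

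Of all 8290 genes tested, those with the course most like that of *benA* were AN4402 (r = 0.939), *btgE* (AN1551, r = 0.928), which encodes an enzyme of the cell wall that acts on beta-glucan, and *aspC* (AN8182, r = 0.919), a septin gene. Without flask 3 the order changed, and these 3 ranked 13, 62 and 217 with r of 0.906, 0.869 and 0.818. For *tubB* they were AN1638 (r = 0.928), annotated as an aminopeptidase, AN9116 (r = 0.922) and AN2868 (r = 0.919). For *tubA* they were AN4218 (r = 0.895), AN5650 (r = 0.893) and AN6563 (r = 0.874). Without flask 3 the last 3 ranked 53, 1840 and 18 for *tubA*, and the r of AN5650 was 0.269. Among those of *tubB*, AN1638 ranked 19 without flask 2 and AN2868 ranked 15 without flask 1.

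A wider list of 18 microtubule genes held gamma-tubulin complex, kinesin, dynein and dynactin genes and genes that place nuclei. The list took *gcpC*, *gcpE*, *kinA* and *migA* from the study's table of cytoskeleton genes with changing expression, which was drawn up on these libraries. Over the course 4 of the 18 changed by the edgeR test, where 23.3% of all genes tested did. *gcpC* and *kinA* were among the 4, so this count is no independent evidence. At 120 min 5 were lower and none was higher, where 12.5% of all genes were lower and 16.5% higher. Over the 18 genes the median log2 change at 120 min was -0.19. *nudC* (AN5181), a gene of nuclear distribution, had 1047, 974 and 1400 normalized counts at 0 min and 691, 653 and 730 at 120 min, which did not overlap, for a log2 fold change of -0.72 (standard error 0.17, edgeR adjusted p = 0.00182). *gcpC* (AN4867), for a protein of the gamma-tubulin complex, had 805, 787 and 913 at 0 min and 613, 635 and 550 at 120 min, with a log2 fold change of -0.49 (edgeR adjusted p = 0.000998). *nudI* (AN1454), for the intermediate chain of dynein, went from 504, 421 and 535 to 387, 347 and 354, with -0.43 (edgeR adjusted p = 0.00269).

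The conventional kinesin gene *kinA* (AN5343), for the motor that runs toward plus ends, had 1183, 1482 and 1239 normalized counts at 0 min and 1051, 1204 and 995 at 120 min, with a log2 fold change of -0.28 (edgeR adjusted p = 0.031). The dynactin p50 gene AN3589 was at -0.32 (edgeR adjusted p = 0.0136), and its adjusted p over the course was 0.0816. *gcpE* (AN8120), for another gamma-tubulin complex protein, had 486, 522 and 445 normalized counts at 0 min and 429, 413 and 469 at 120 min and did not pass (edgeR adjusted p = 0.471). In between it was higher, with 705, 664 and 620 at 40 min, above all 3 libraries of 0 min. Its log2 fold change of 0.47 at 40 min did not pass either (edgeR adjusted p = 0.121). As said above, *kinA*, *gcpC* and *gcpE* came onto the list from the study's table of cytoskeleton genes drawn up on these libraries.

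Markers of conidiophores and conidia, asexual forms that a mycelium of *A. nidulans* can make, were low, and markers of sexual structures were not looked at. The normalized counts of *brlA*, *abaA*, *wetA*, *rodA*, *wA* and *yA* summed to 167 to 183 at 0 min and to 234 to 404 at 120 min. Of the 6 genes, 1 rose by the edgeR test, as 16.5% of all genes tested did. It was *brlA*, with 1 to 25 normalized counts at 0 min and 51 to 245 at 120 min. Its log2 fold change at 120 min was 3.80 (standard error 0.29, edgeR adjusted p = 1.15e-09). In flasks 1, 2 and 3 it had 12, 25 and 1 normalized counts at 0 min and 35, 149 and 14 at 60 min. None of the 6 was at 0 in any library. The part of these markers in the course of *tubC* and *tubB* was not tested.

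The second 15 min library is labelled replicate 3 while its column carries the number of replicate 2, and the tests above leave 15 min out. It held 8819 normalized counts of *benA*, 6025 of *tubC*, 8776 of *tubA* and 4091 of *tubB*, and the 15 min library of flask 1 held 8211, 5389, 6793 and 3745. With 15 min added, the test over the course called 4 members under either number.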

How the data were processed

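RNA was sequenced from mycelia of 3 flasks sampled in series, and each library was assigned to its time point and flask by its label. Reads, single-end, had been aligned by the authors with HISAT2 to the FGSC A4 genome of Ensembl Fungi, counted per annotated gene with HTSeq and normalized with DESeq2, with build, annotation release and strand setting not given in the sources used here. Raw counts were deposited by the authors in 12 tables, each setting a later time against 0 min. The 33 repeated 0 min columns were identical. Columns of the authors' fold changes and p-values and 71 normalized columns were not used, and neither was a table of gene totals.

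A gene was tested where at least 2 replicates had reads at every time point (8290 of 9344 with a read). Tests were run in R 4.3.3 with edgeR 4.0.16 (TMM, quasi-likelihood, replicate as a block, Benjamini-Hochberg adjustment, threshold 0.05) and limma 3.58.1 (trend, log2 CPM with a prior count of 2), with DESeq2 1.42.0 as an alternative. Standard errors of edgeR estimates were computed as the absolute estimate divided by the root of F and so borrow from the spread of other genes. Normalized counts are counts over DESeq2 size factors set over all 38 libraries. Likeness was Pearson's r of log2 normalized counts plus 1. The scripts were tested on simulated data. The sampling of the same flasks pairs the replicates. Across genes, deviations from the time mean at 0 and 120 min correlated at -0.16, 0.157 and 0.273 in replicates 1, 2 and 3, and at neighbouring times at a median of 0.478 to 0.749. Counts of replicates differed by far more than sampling noise, at a chi-square of 20.7 or more per degree of freedom.

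The 10 genes and the other lists were chosen with earlier results of these data known. The text names all 10, the 3 genes most like each of *benA*, *tubA* and *tubB*, and of the other microtubule genes the 6 with the smallest adjusted p over the course. Of 23 further microtubule gene symbols looked up in RefSeq's ASM1142v1 table, 8 matched, and the others were not analysed here. Levels of different genes were not compared, since no transcript length of the files' annotation was used. Alternatives covered normalization, tool, filters, the block, the 15 min libraries, the time model, the windows and each flask left out.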

Additional observations from a re-analysis of the deposited data

How the results depend on the processing

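The count of members called over the course was 4. With no replicate block it was 2, and the count of all genes called was 806, where the main fit called 1931. With time as a spline of 3 degrees of freedom the counts were 8 members and 4845 genes. Leaving out 1 flask in turn gave 1 to 2 members and 439 to 1327 genes. At 60 min, the call counts with no replicate block were 54 genes lower and 73 higher, and from the 6 libraries of the 2 times they were 0 members, 0 genes lower and 0 higher, with 1082 genes at an unadjusted p below 0.05. Leaving out 1 flask gave 0 to 3 members and 30 to 240 genes lower and 67 to 469 higher. At 120 min, no replicate block gave 525 genes lower and 723 higher, and the 6 libraries alone gave 0 members, 100 genes lower and 266 higher. Leaving out 1 flask gave 2 to 3 members, 401 to 801 genes lower and 642 to 1262 higher. For late against early levels with limma, 90 and 120 min against 0 min alone gave 41 genes lower and 94 higher. A prior count of 0.5, no filter beyond 1 read and a normalized count of at least 10 each gave 0 genes higher, with 1771, 1947 and 1547 at an unadjusted p below 0.05. Leaving out 1 flask gave 0 to 113 genes lower and 0 to 453 higher. No member was called under any of these late against early settings. The limma estimate turned for *tubC* without flask 2 (range -0.20 to 0.60 with 1 flask left out) and for *tubA* without flask 3 (range -0.57 to 0.078). The edgeR estimate of *tubC* at 120 min turned without flask 2 (range -0.16 to 0.31). The *tubB* share turned to 0.124 points for 120 against 0 min alone, and ranged from -6.54 to 5.18 points with 1 flask left out. The beta to alpha ratio turned to -0.015 for 120 against 0 min alone, and ranged from -0.00379 to 0.0828. The rise of the *tubC* share stayed between 8.22 and 17.9 points with 1 flask left out. Fits with fewer libraries have fewer degrees of freedom, and the cause of these changes was not tested. Of 275 recomputed log2 fold changes of single members, 217 kept their direction and side of the threshold, 57 lost a call and 1 reversed. They covered all 10 members at 120 min and, at other times, only the members called there. A member not called at 120 min counted as kept while it stayed uncalled in its direction. What depth alone limits was not measured for single members.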

Other observations

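Actin genes of the same study table, *actA*, *fimA*, *ampA*, *ampB* and *budA*, were chosen by the study on these libraries and are no independent evidence of a direction. Over the course 4 of the 5 changed by the edgeR test, where 23.3% of all genes tested did. At 120 min 2 were lower and none was higher, where 12.5% of all genes were lower and 16.5% higher. *actA* (AN6542), the actin gene, had 19494, 17851 and 25117 normalized counts in flasks 1, 2 and 3 at 0 min, 19321, 14808 and 19962 at 60 min, and 14748, 14615 and 13081 at 120 min. All 3 flasks were lower at 120 min than any was at 0 min, for a log2 fold change of -0.55 (standard error 0.11, edgeR adjusted p = 0.000769). *budA* (AN1324), a polarity gene, had 666, 706 and 576 at 0 min and 490, 563 and 488 at 120 min, for -0.36 (edgeR adjusted p = 0.00463). The median log2 fold change of the 5 was 0.15 at 30 min, where that of the 10 microtubule genes was -0.22, and -0.55 at 120 min, where that of the 10 was -0.32. The difference between the 2 lists was not tested.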
